A study of Homo sapiens with 4 samples.

Results

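The clustered protocadherins are cell-surface adhesion proteins of the cadherin superfamily, encoded in 3 tandem clusters, PCDHA, PCDHB and PCDHG, on human chromosome 5. The genes described here are all protein-coding genes in the count files whose symbol starts with PCDHA, PCDHB or PCDHG (the symbols alone decide membership, although the family was picked as a subject with earlier results of these data known). There are 53 of them among 60483 genes counted, with 15 in PCDHA, 16 in PCDHB and 22 in PCDHG. The study measured RNA in C4-2, an established human prostate cancer line derived from LNCaP, with 2 libraries of control cells (C4-2-CON) and 2 libraries of enzalutamide-resistant cells (C4-2-ENZ). Enzalutamide is a drug used to treat prostate cancer. Per the labels, the resistant cells were treated with it for 1 month and the control cells were not. Both groups are recorded with 1 month of culture and were at passage 20 to 30 in RPMI 1640 with serum. The labels also mention FGF-2 and an NS expansion medium without saying which cells received them, and do not say whether control cells received vehicle. The presence of the drug and the resistant state cannot be told apart in this design. Nothing states that the 2 libraries of a group came from separate cultures, so the p-values measure no more than how far these libraries spread, and that spread may be technical.

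In neurons, each cell expresses a small, variable selection of these genes, and the proteins bind like with like between cells, so that a neurite can recognise another branch of its own cell. Each PCDHA and PCDHG gene has its own promoter and its own large first exon, which is spliced to constant exons shared by the whole cluster, whereas the PCDHB genes are single-exon genes with no constant exons. The last genes of the PCDHA and PCDHG clusters are the C-types (PCDHAC1, PCDHAC2, PCDHGC3, PCDHGC4 and PCDHGC5), whose first exons differ most from the rest. Promoter choice depends on DNA methylation and on looping to distant enhancers by CTCF and cohesin, and many promoters carry a conserved element with the letters CGCT at its core.

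All members lie on the plus strand. In GENCODE 29 (GRCh38), PCDHA spans chr5:140786136-141012347, PCDHB spans chr5:141051135-141249365 and PCDHG spans chr5:141330571-141512981. Sharing of exons limits what a count means here. A median of 46.5% of the exonic bases of a PCDHA gene, and 43.9% of those of a PCDHG gene, also belong to another gene model on the same strand, against a median of 0% (range 0 to 9.43%) for PCDHB. A read within the shared exons cannot be assigned to a single PCDHA or PCDHG gene, so the counts of these genes come mainly from the variable first exons if such reads were dropped, as in the usual modes of the counter. The paralogs also resemble each other: a median of 58.0% of the 50-base windows of a PCDHA gene's longest transcript, 16.6% for PCDHB and 47.4% for PCDHG, occur identically in another gene.

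The promoters of the members that the results turn on are shown here. All but PCDHB8, which was not tested, were called higher, so these stretches cannot relate the letters to change. RefSeq promoter windows (GRCh38.p14, 250 bases before to 50 after the gene start) were found for 47 of the 53 members. Each stretch is the plus strand, 5′ to 3′, with 20 bases on either side of the CGCT core, which is in capitals. The PCDHA1 stretch is chr5:140786082-140786125 and that of PCDHA10 is chr5:140855837-140855880. In PCDHB, the stretch of PCDHB5 is chr5:141135175-141135218, that of PCDHB8 is chr5:141177773-141177816, that of PCDHB13 is chr5:141213861-141213904 and that of PCDHB14 is chr5:141223259-141223302. In PCDHG, the stretch of PCDHGA6 is chr5:141373831-141373874, that of PCDHGA7 is chr5:141382645-141382688, that of PCDHGB4 is chr5:141387613-141387656 and that of PCDHGC3 is chr5:141475876-141475919.
PCDHA1: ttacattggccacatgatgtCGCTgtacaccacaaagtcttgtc
PCDHA10: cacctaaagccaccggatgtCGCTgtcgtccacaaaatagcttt
PCDHB5: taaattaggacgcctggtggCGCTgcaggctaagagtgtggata
PCDHB8: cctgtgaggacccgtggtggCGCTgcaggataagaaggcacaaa
PCDHB13: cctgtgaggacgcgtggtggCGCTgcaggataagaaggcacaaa
PCDHB14: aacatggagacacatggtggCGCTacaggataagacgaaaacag
PCDHGA6: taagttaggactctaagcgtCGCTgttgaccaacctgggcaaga
PCDHGA7: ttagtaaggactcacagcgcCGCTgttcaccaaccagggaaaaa
PCDHGB4: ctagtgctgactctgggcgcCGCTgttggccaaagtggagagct
PCDHGC3: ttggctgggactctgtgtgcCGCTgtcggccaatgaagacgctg

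The letters GGCGCT, searched on both strands, occurred in the windows of 13 of 14 PCDHB members (92.9%), 9 of 20 PCDHG members (45%) and 1 of 13 PCDHA members (7.69%), against 21.7% of all 35116 promoter windows of the table. Counted by window, PCDHG had 11 of 25 (44%). All PCDHB matches were on the plus strand. PCDHGA2, PCDHGB1, PCDHGA7, PCDHGA8, PCDHGA9 and PCDHGA10 held only the reverse form AGCGCC, so the shares of the clusters do not count the same element. The CTCF-type letters AGNNGGCGC, which can overlap GGCGCT, occurred in 2 of 14 PCDHB, 1 of 20 PCDHG and 0 of 13 PCDHA members, against 10.4% of all windows. A further pair of motifs was chosen after the windows had been read. ATGTCGCTG occurred in 6 of 13 PCDHA, 0 of 14 PCDHB and 0 of 20 PCDHG members and in 0.0854% of all windows. GNCGCTGT, which can overlap both GGCGCT and ATGTCGCTG, occurred in 17 of 20 PCDHG, 5 of 13 PCDHA and 1 of 14 PCDHB members and in 4.35% of all windows. These matches are letters in a window and are not measured binding sites.

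The libraries held 25589724 and 29866008 counts in genes for the control cells and 45033885 and 39047453 for the resistant cells. The share of counting records that did not align was 37.0% and 34.2% in control and 20.3% and 20.7% in resistant libraries, so depth and alignment moved with the group, and their part in the results was not tested. Across all 20325 genes with enough counts to be tested, edgeR's quasi-likelihood test called 33% higher and 31.7% lower in resistant cells at a Benjamini-Hochberg adjusted p under 0.05. Over all genes, replicate libraries differed beyond counting noise, with chi-square statistics of 5.67 (control) and 2.38 (resistant) for each degree of freedom. Over the protocadherin members with enough counts for this check, the same statistic was 1.14 (24 genes) and 0.926 (36 genes), so their replicates differed by about the counting noise. Extra spread between replicates raises this statistic more in genes with many counts. The members mostly had few counts, so these values do not show that they vary less than other genes. Records that matched more than 1 gene, among them reads in shared exons, took 2.97% and 3.67% in control and 3.91% and 3.77% in resistant libraries.

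The summed level of every cluster was higher in the resistant cells, and PCDHG carried most of the counts. Expression is given in CPM, the counts of a gene relative to the library total, with totals scaled by the trimmed mean of M values (TMM), and a summed level includes all members, however few their counts. The PCDHG sum was 23.9 and 22.2 CPM in the control libraries and 53.8 and 56.1 CPM in the resistant libraries, a ratio of means of 2.38. The PCDHB sum was 1.80 and 2.5 CPM in control and 9.56 and 9.19 CPM in resistant libraries, a ratio of 4.36. The PCDHA sum was 0.545 and 0.321 CPM in control and 1.70 and 1.40 CPM in resistant libraries, a ratio of 3.58 that rests on 13 and 9 counts against 82 and 58. In each cluster both resistant libraries stood above both control libraries. An exact permutation test of a single sum, with 2 libraries against 2, cannot give a two-sided p below 0.333. In RNA from whole cultures, more cells expressing a gene and more RNA per cell cannot be told apart.

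**Figure D1:**
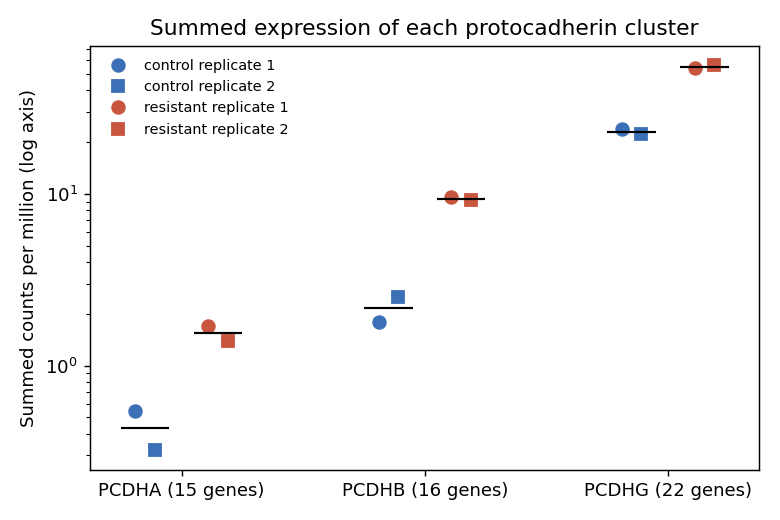
Summed TMM-scaled CPM of each protocadherin cluster (vertical axis, logarithmic) in each of the 4 libraries, with control in blue, resistant in red and a black line at each group mean. In all 3 clusters the resistant points lie above the control points, and PCDHG reached 53.8 and 56.1 CPM in resistant cells.

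Of the 53 members, 28 had enough counts to be tested, 27 were called higher in resistant cells, 0 were called lower and PCDHGB7 was not called. The background is 33% of all genes tested called higher (42.3% of protein-coding genes) and 31.7% called lower (31.4%). No tested member had a log2 fold change below 0 with edgeR or DESeq2, so 0 were lower at an unadjusted p under 0.05 too. A member that passed the count filter only because its level was high in resistant cells had to differ, so the count of members passing is not support in itself. The filter asks for about 0.29 CPM in 2 libraries. Of the 28 members tested, 18 reached that level in both control libraries as well, with 0 in PCDHA, 2 in PCDHB and 16 in PCDHG. This comparison therefore says nothing of PCDHA and little of PCDHB. Of these 18, 17 were called higher, against 33% of all genes, coding or not, that reached it in both control libraries. Among these 18, the number called higher by at least 2-fold was 12 (background 5.81%), and by at least 4-fold it was 5 (background 0.987%). Over all 53 members, tested or not, both resistant libraries exceeded both control libraries in 41, the groups overlapped in 12, and no member was below. The matching share over every gene with a count was 26.6%. With no count filter, edgeR called 29 of the 53 members higher and 0 lower, against 18.4% and 13.9% of all genes. The backgrounds of 26.6%, 18.4% and 13.9% include non-coding genes, whereas all members are protein-coding.

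PCDHA was barely expressed in either condition, and PCDHA1, the first gene of the cluster, was the member that stood out. PCDHA1 had 1 and 0 counts in the control libraries and 24 and 21 counts in the resistant libraries, or 0.0420, 0, 0.498 and 0.507 CPM. The 2 groups did not overlap, and the ratio of rates was 26.0 with a 95% counting interval of 4.44 to 1050. edgeR called it higher, with an adjusted p of 2.17e-04. Its fitted log2 fold change was 4.47 with all libraries and 3.49 without control replicate 2 (adjusted p = 7.35e-04 by edgeR), and without control replicate 1 no control count remained. PCDHA10 had 0.126 and 0.143 CPM in control and 0.394 and 0.290 CPM in resistant libraries, from 3, 4, 19 and 12 counts. Its log2 fold change was 1.33 (SE 0.50, adjusted p = 0.0341 by edgeR). That call was lost without control replicate 1 (adjusted p = 0.147), without control replicate 2 (0.133) and without resistant replicate 2 (0.073), and without resistant replicate 1 the gene no longer passed the count filter.

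Each of the other 13 PCDHA genes had at most 6 counts in any library and was not tested. PCDHA12, among the 3 highest PCDHA genes per kilobase in resistant cells together with PCDHA1 and PCDHA10, had 1 and 0 counts in control and 2 and 5 in resistant libraries. The C-type PCDHAC1 had 1 and 0 counts in control and 5 and 4 in resistant libraries, a ratio of 5.21 with a counting interval of 0.722 to 228. PCDHAC2, which closes the variable part of the cluster, had 0 and 3 counts in control and 6 and 1 in resistant libraries, and its groups overlapped. In control cells the highest members per kilobase were PCDHA11 and PCDHAC2, each resting on 3 counts, so the order of PCDHA genes in control cells was not resolved at this depth. Both resistant libraries exceeded both control libraries for 7 of the 15 genes.

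In PCDHB, the genes with enough counts to be tested lay towards both ends of the cluster. PCDHB1, the first gene, and those in the middle were close to the detection limit. The 7 members tested were PCDHB2, PCDHB3, PCDHB4 and PCDHB5 near the start and PCDHB13, PCDHB14 and PCDHB15 at the end. All 7 were called higher. Of these 7, 2 reached the filter level of 0.29 CPM in both control libraries and 3 reached it in neither. The count of 7 called is therefore not support in itself. PCDHB14 had 0.503 and 0.321 CPM in control and 2.53 and 2.17 CPM in resistant libraries. Its log2 fold change was 2.53 (SE 0.26, adjusted p = 3.92e-06 by edgeR), or 5.78-fold. PCDHB5 had 0.126 and 0.321 CPM in control and 1.45 and 1.64 CPM in resistant libraries, a log2 fold change of 2.72 (SE 0.33, adjusted p = 1.98e-05 by edgeR). This was the largest change among the PCDHB genes tested, and the control libraries differed from each other by more than the resistant ones did as a ratio.

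PCDHB13 had 0.126 and 0.392 CPM in control and 1.51 and 1.69 CPM in resistant libraries, a log2 fold change of 2.55 (SE 0.34, adjusted p = 3.85e-05 by edgeR). PCDHB2 had 0.378 and 0.392 CPM in control and 1.37 and 1.28 CPM in resistant libraries, a log2 fold change of 1.77 (SE 0.26, adjusted p = 9.96e-05 by edgeR). Without control replicate 2, the changes were larger, 3.64 for PCDHB13, 3.59 for PCDHB5 and 3.67 for PCDHB4. That omission left the lower control library of each gene, 0.126 CPM for PCDHB13, 0.126 for PCDHB5 and 0.0420 for PCDHB4. The higher ones were 0.392, 0.321 and 0.285 CPM. In PCDHB2, PCDHB5, PCDHB13 and PCDHB14 the groups were separated by more than the spread of either group. PCDHB3, PCDHB4 and PCDHB15 had log2 fold changes of 1.61, 1.69 and 1.68, from 9, 9 and 6 counts over both control libraries. PCDHB4 lost its call without control replicate 1 (log2 fold change 0.99, adjusted p = 0.0928 by edgeR) and without resistant replicate 1 (1.24, 0.154). PCDHB15 lost it without control replicate 2 (adjusted p = 0.0865) and without resistant replicate 1 (0.122), and PCDHB3 lost it without control replicate 2 (0.0518).

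The other 9 PCDHB genes, PCDHB1 and the run from PCDHB6 to PCDHB12 with PCDHB16 inside it, had 0 to 5 counts per control library and 0 to 12 per resistant library. For 7 of these 9 both resistant libraries lay above both control libraries, and the groups overlapped for PCDHB6 and PCDHB12. PCDHB10 had 0 and 2 counts in control and 12 and 7 in resistant libraries, a ratio of 5.50 with a counting interval of 1.33 to 48.7, and was called with no count filter (adjusted p = 0.0158 by edgeR). PCDHB8 and PCDHB13, whose promoter stretches above are nearly the same letters, differed in level in resistant cells. There PCDHB8 had 0.0534 ± 0.0057 CPM per kilobase (SD, n = 2), against 0.316 ± 0.024 for PCDHB13. In control cells the levels, 0.0225 ± 0.0082 and 0.0512 ± 0.037, did not differ beyond their spread. Of the 50-base windows of PCDHB8, 49.4% occur identically in another gene, against 24.2% for PCDHB13, and the part of such sharing in these levels was not tested.

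PCDHG was the most abundant cluster, and its members changed by very different amounts. Of its 22 genes, 19 were tested and 18 of these were called higher, or 12 with DESeq2. PCDHGB4 had 1.93 and 1.71 CPM in control and 8.65 and 8.64 CPM in resistant libraries. Its log2 fold change was 2.25 (SE 0.12, adjusted p = 1.91e-08 by edgeR), the smallest adjusted p of any member. PCDHGA7, the gene just before it, had 0.336 and 0.392 CPM in control and 3.15 and 2.80 CPM in resistant libraries. Its log2 fold change was 3.02 (SE 0.24, adjusted p = 4.12e-07 by edgeR), or 8.08-fold, and the largest in PCDHG. The resistant libraries of both genes lay far outside the range of the control libraries.

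PCDHGA6 had 0.881 and 0.642 CPM in control and 3.32 and 3.16 CPM in resistant libraries, a log2 fold change of 2.10 (SE 0.20, adjusted p = 2.47e-06 by edgeR). PCDHGB5 had 1.34 and 1.64 CPM in control and 4.27 and 4.44 CPM in resistant libraries, a log2 fold change of 1.53 (SE 0.16, adjusted p = 4.49e-06 by edgeR). PCDHGA8, already abundant in control cells, had 2.94 and 3.03 CPM in control and 6.12 and 7.55 CPM in resistant libraries, a log2 fold change of 1.19 (SE 0.14, adjusted p = 1.6e-05 by edgeR). All 3 genes had separate groups, and PCDHGA8 had the wider spread between resistant libraries.

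The C-type PCDHGC3, which is known to be expressed outside the nervous system too, changed by less than 1.5-fold. It had 4.11 and 3.81 CPM in control and 5.23 and 5.36 CPM in resistant libraries, a log2 fold change of 0.42 (SE 0.12, adjusted p = 8.96e-03 by edgeR). The groups did not overlap, but with a correction for gene length and GC content the change was 0.11 (adjusted p = 0.449). PCDHGC4 had 7 and 8 counts in control and 14 and 3 in resistant libraries, or 0.294, 0.285, 0.290 and 0.0724 CPM, and was not tested. PCDHGC5 had 3 and 5 counts in control and 10 and 11 in resistant libraries, or 0.126, 0.178, 0.207 and 0.265 CPM, and was not tested. Summed, the 3 C-type genes were 1.30 times higher in resistant cells, and the 19 A-type and B-type genes of PCDHG 2.64 times.

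The remaining tested PCDHG genes had log2 fold changes between 0.45 (PCDHGA10) and 2.28 (PCDHGB3). PCDHGB7 was the tested member that was not called, with 22 and 18 counts in control and 47 and 60 in resistant libraries. Its log2 fold change was 0.63 (SE 0.29, adjusted p = 0.074 by edgeR). It was called without control replicate 1 (0.90, adjusted p = 0.0161) and without resistant replicate 1 (0.91, adjusted p = 0.011). In the other direction, PCDHGA10 lost its call without resistant replicate 2 (0.30, adjusted p = 0.164 by edgeR) and PCDHGA11 without control replicate 2 (0.68, adjusted p = 0.0908). PCDHGA12 had a change of 1.197 with all libraries and of 2.29 without control replicate 1, and lost its call without control replicate 2 (0.51, adjusted p = 0.417 by edgeR), without resistant replicate 1 (1.25, 0.0778) and without resistant replicate 2 (1.16, 0.0988). PCDHGA1 no longer passed the count filter without resistant replicate 1. PCDHGB2 went from 1.29 to 1.86 without control replicate 1, its higher control library (0.881 against 0.428 CPM). With the length and GC correction, 13 PCDHG genes were called higher, and PCDHGB1, PCDHGA10, PCDHGA11, PCDHGA12 and PCDHGC3 were not.

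Along PCDHG the change was largest in the middle of the cluster and small towards its end. The 4 PCDHG genes that changed at least 4-fold are neighbours, PCDHGB3, PCDHGA6, PCDHGA7 and PCDHGB4, at places 8 to 11 of 22 in genomic order. From PCDHGB6 at place 15 to PCDHGC3 at place 20, fold changes ran from 1.34 to 2.29. Across the 19 tested genes, the Spearman correlation of log2 fold change with place was -0.62, and with control level per kilobase it was -0.49. These are descriptions across genes that share the same 4 libraries and the same constant exons. In PCDHB the correlation of fold change with place was 0.18 over 7 genes.

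**Figure D2:**
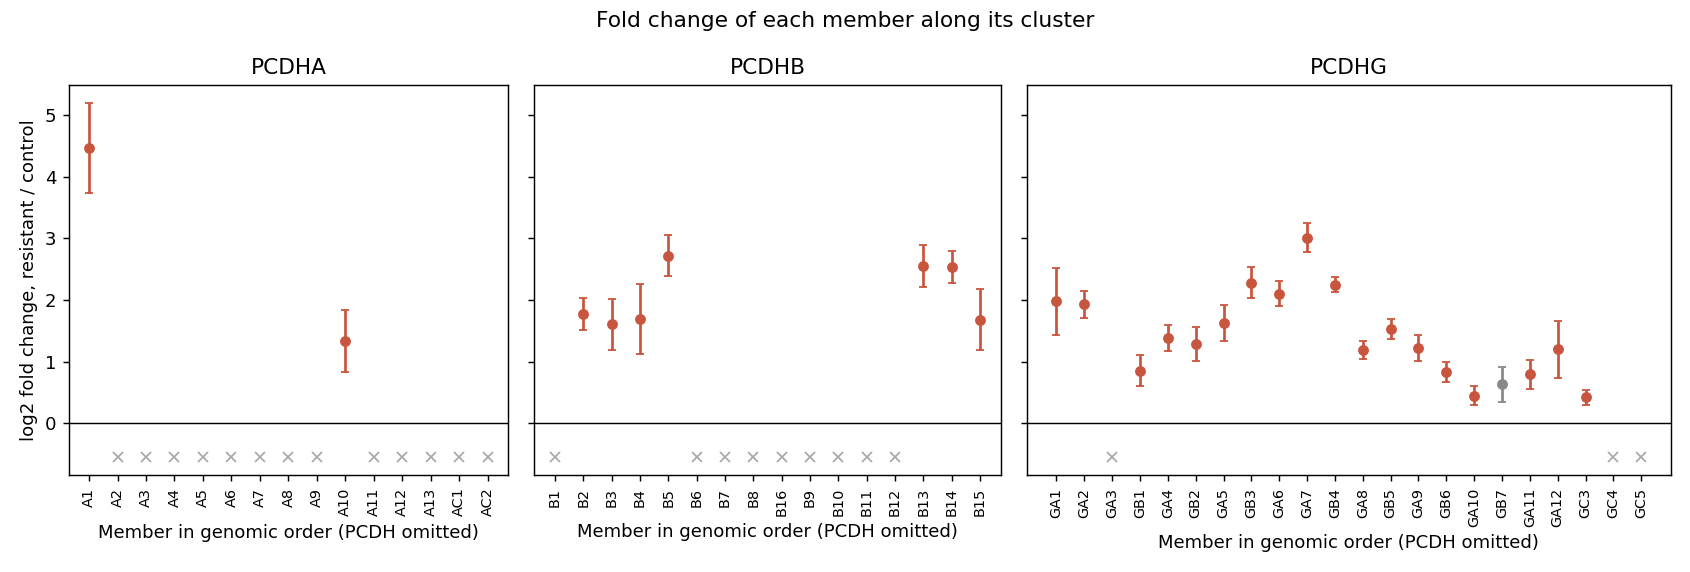
Log2 fold change of resistant over control cells (vertical axis) for each protocadherin in genomic order within its cluster, with points at the edgeR estimate and bars of 1 standard error. Red marks genes called higher, grey a gene tested and not called (PCDHGB7), and crosses genes with too few counts to be tested. PCDHA1 is at 4.47, and the PCDHG values peak at PCDHGA7 (3.02) and end at 0.42 for PCDHGC3.

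Levels were compared between genes per kilobase of exonic sequence that no other gene model shares. In control cells, PCDHGC3 was the highest member at 1.22 ± 0.065 CPM per kilobase (SD, n = 2), followed by PCDHGB4 at 0.740 ± 0.063 and PCDHGA8 at 0.708 ± 0.016. The last 2 of these did not differ beyond their spread. In resistant cells, PCDHGB4 ranked first at 3.52 ± 0.0032 CPM per kilobase. PCDHGB5 at 1.63 ± 0.044, PCDHGC3 at 1.63 ± 0.028 and PCDHGA8 at 1.62 ± 0.24 followed and did not differ beyond their spread. With all exonic bases as length, 2 of the 3 highest control members were the same, and PCDHGB4 was no longer among them. It was at 0.264 in control cells, below PCDHGC3 (0.729), PCDHGA10 (0.44), PCDHGA8 (0.344), PCDHGB5 (0.307) and PCDHGB6 (0.276). In resistant cells PCDHGB4 was still the highest, at 1.25. Its control rank thus depended on the length used.

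Outside PCDHG, group means did not exceed the 0.532 CPM per kilobase of PCDHB5 in resistant cells. In PCDHB the highest control levels were 0.110 ± 0.0029 for PCDHB2, 0.0884 ± 0.028 for PCDHB14 and 0.0768 ± 0.047 for PCDHB5, and these 3 did not differ beyond the wider spreads among them. In resistant cells PCDHB5 at 0.532 ± 0.046 and PCDHB14 at 0.505 ± 0.054 did not differ beyond their spread, and PCDHB2 followed at 0.378 ± 0.018. PCDHA1 led its cluster in resistant cells at 0.215 ± 0.0027 CPM per kilobase. The order of members within a cluster was largely shared between the groups in PCDHB and PCDHG, with a Spearman correlation of control with resistant level of 0.89 over 16 and 0.85 over 22 genes, against 0.34 over the 15 sparsely counted PCDHA genes. These correlations are descriptions, since gene length and sequence are common to both groups.

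**Figure D3:**
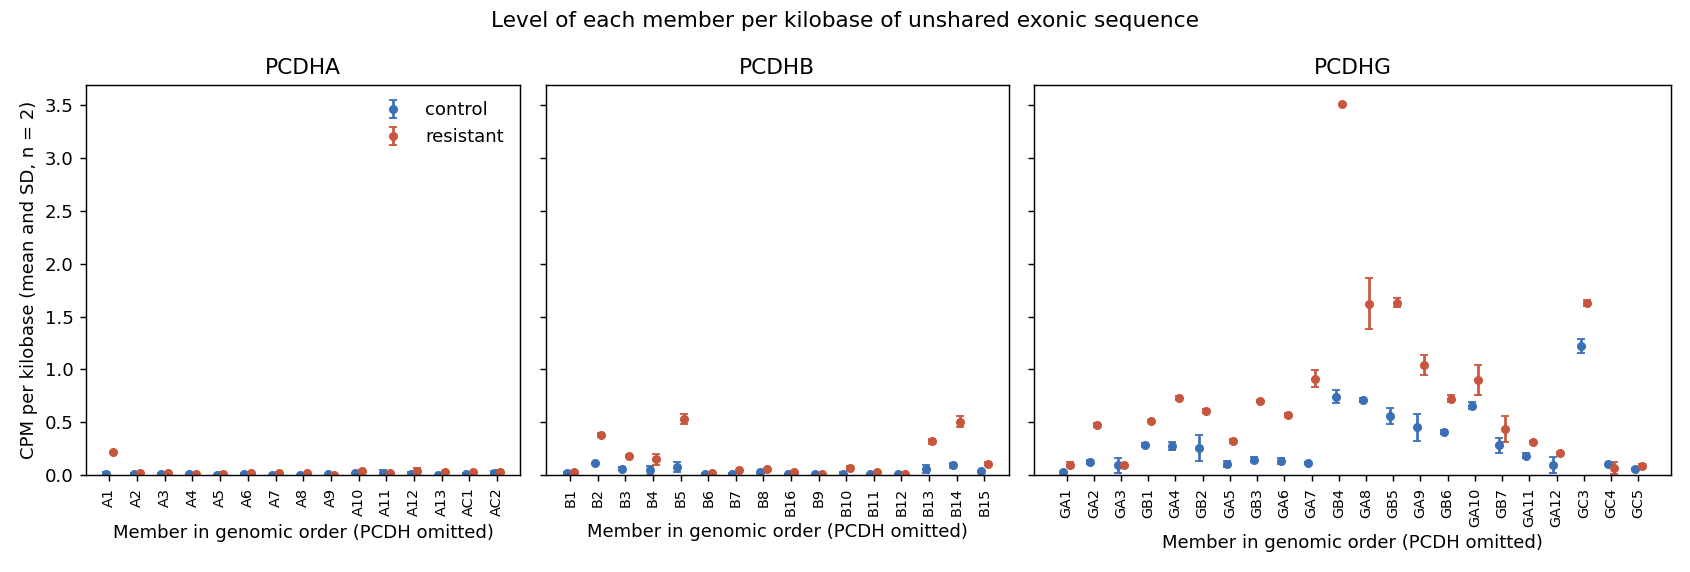
Level of every member in CPM per kilobase of unshared exonic sequence (vertical axis), in genomic order within its cluster, as mean and SD of 2 libraries per group. PCDHGB4 rises to 3.52 in resistant cells (red), while PCDHGC3 is the highest member in control cells (blue) at 1.22.

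The make-up of PCDHG counts also differed between the groups, and a share within the cluster does not depend on the scaling between libraries. PCDHGC3 gave 17.2% (95% Wilson interval 14.3 to 20.5) and 17.2% (14.4 to 20.3) of all PCDHG counts in the control libraries. In the resistant libraries it gave 9.71% (8.63 to 10.9) and 9.55% (8.42 to 10.8). PCDHGB4 differed the other way, with 8.08% (6.12 to 10.6) and 7.69% (5.85 to 10.1) in control and 16.1% (14.7 to 17.5) and 15.4% (14 to 16.9) in resistant libraries. For both genes, the intervals of control and resistant libraries did not overlap. These intervals cover counting error only, and an exact permutation test over the 4 libraries cannot reach a p below 0.333. The lower share of PCDHGC3 is not a lower level. Its level was 1.34-fold higher in resistant cells, less than the ratio of 2.38 for the PCDHG sum.

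PCDHGA7 gave 1.41% and 1.76% of PCDHG counts in control and 5.86% and 4.99% in resistant libraries. PCDHGA10 gave 11.8% and 13.6% in control and 6.63% and 7.96% in resistant libraries. The C-type genes together gave 19.0% and 19.2% in control and 10.6% and 10.2% in resistant libraries. PCDHGB4 and PCDHGA7 were named for the adjusted p of their rise, and PCDHGA10 after its value was seen, so the direction of their shares follows from that choice and is a description.

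**Figure D4:**
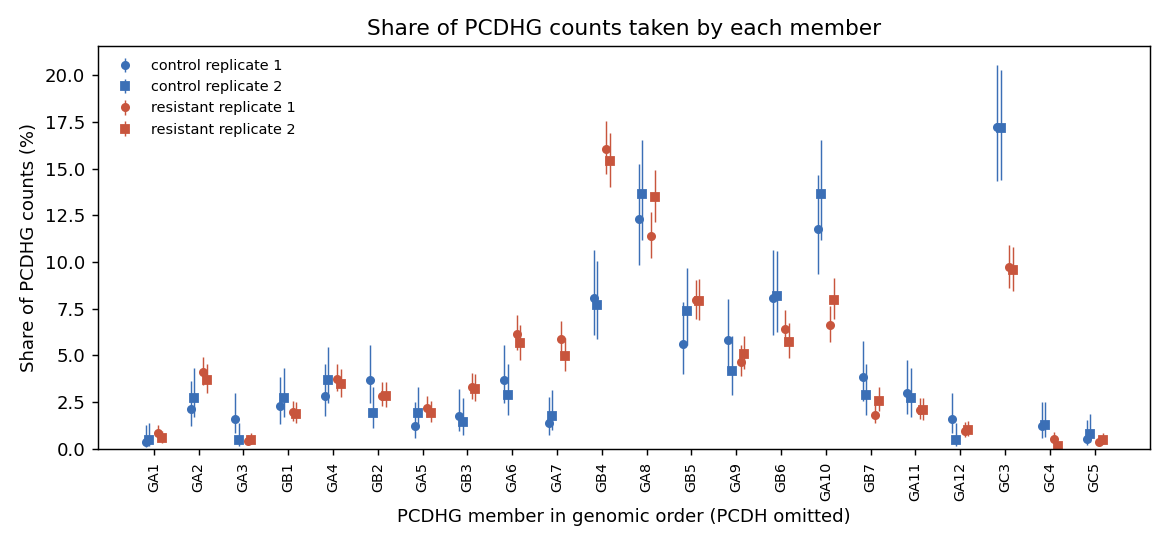
Share of all PCDHG counts taken by each PCDHG gene (vertical axis, percent), in genomic order, for each library with its 95% Wilson interval. PCDHGC3 lies at 17.2% in both control libraries (blue) and at 9.71% and 9.55% in the resistant libraries (red), where PCDHGB4 lies at 16.1% and 15.4%.

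Non-coding genes and pseudogenes inside the clusters lay close to the detection limit in both groups. Their summed level was 0.629 and 0.535 CPM in control and 1.29 and 1.40 CPM in resistant libraries. Of 28 such genes, 17 had no count in any library, and the 1 with enough counts, the pseudogene PCDHGB8P, was not called (log2 fold change 0.31, adjusted p = 0.571 by edgeR). The pseudogene PCDHGB9P, between PCDHGA12 and PCDHGC3, had 0 and 2 counts in control and 14 and 10 in resistant libraries. PCDHB18P, between PCDHB14 and PCDHB15, had 0 and 1 counts in control and 5 and 13 in resistant libraries. These were named after their values were seen, and their reads may be shared with near-identical members. Antisense models overlap some members, and without knowing whether strand was used in counting, reads of the members and of antisense RNA cannot be told apart.

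Protein-coding genes around and between the clusters moved in both directions. Of 38 within 1 Mb, 32 were tested, with 12 called higher, 12 lower and 8 not called, and a median log2 fold change of -0.04 against 0.09 over all protein-coding genes tested. Of all protein-coding genes tested, 42.3% were called higher and 31.4% lower, which is the background for this list and the lists that follow. With DESeq2, 7 neighbours were called lower. TAF7, a general transcription factor subunit gene between PCDHB and PCDHG, had 183 and 176 CPM in control and 178 and 180 CPM in resistant libraries (log2 fold change -0.003, SE 0.04, adjusted p = 0.952 by edgeR). SLC25A2, a mitochondrial carrier gene in the same gap, had 0, 1, 3 and 3 counts and was not tested. DIAPH1, a formin gene just past the end of PCDHG, had a log2 fold change of -0.16 (adjusted p = 0.0322 by edgeR). On the far side of PCDHA, the zinc finger gene ZMAT2 had a change of 0.55 (adjusted p = 3.11e-07 by edgeR). The smallest adjusted p-values among neighbours were those of NDUFA2, a complex I subunit gene (-0.93, adjusted p = 4.39e-08 by edgeR), PURA (0.72, 7.64e-08) and PCDH1 (0.93, 8.66e-08).

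Protocadherins encoded outside the clusters mostly differ in their cytoplasmic parts from the clustered ones. Of 11 examined, 6 were tested, with 4 called higher and 2 lower (background 42.3% and 31.4%). PCDH11X, on the X chromosome, had 0 counts in both control libraries and 47 and 38 in the resistant libraries, at least 16.4-fold higher against a floor of 3 counts over the control group (adjusted p = 8.18e-06 by edgeR). PCDH1 had 17.2 and 16.2 CPM in control and 31.5 and 31.8 CPM in resistant libraries. PCDH19 was also higher, from 5 and 2 counts to 27 and 29 (log2 fold change 2.18, adjusted p = 1.61e-03 by edgeR). PCDH12 was lower (-1.14, adjusted p = 1.95e-03 by edgeR). PCDH9 was lower too (-1.11, adjusted p = 0.0405 by edgeR), and the number of these genes called lower was 1 instead of 2 without control replicate 2, resistant replicate 1 or resistant replicate 2. With DESeq2 or with a filter of 1 CPM in 2 libraries it was 0.

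Genes listed as possible regulators of the clusters moved in both directions. Some are known to act on the clusters' promoters and loops, and others are general cohesin or chromatin factors whose action there was not examined. Of these 37 listed genes, 22 were called higher, 8 lower and 7 not (background 42.3% higher and 31.4% lower). Their median log2 fold change was 0.30 against 0.09 over all protein-coding genes tested. With the length and GC correction their median was 0.08 against -0.04. CTCF, which anchors promoter and enhancer in these clusters, had 61.8 and 62.3 CPM in control and 91.4 and 90.3 CPM in resistant libraries (log2 fold change 0.55, adjusted p = 3.23e-07 by edgeR). RAD21, a core cohesin subunit, went down from 264 and 251 to 181 and 195 CPM (-0.46, adjusted p = 3.82e-06 by edgeR). The cohesin subunit STAG2 rose by 0.73 (adjusted p = 9.36e-09 by edgeR) and WAPL, which releases cohesin from DNA, by 0.55 (adjusted p = 4.77e-06 by edgeR). ESCO2, the cohesin acetyltransferase of S phase, changed by -1.21 (adjusted p = 1.35e-09 by edgeR), and the Polycomb methyltransferase EZH2 by -0.995 (adjusted p = 1.92e-09 by edgeR). SMCHD1, a chromatin protein known to silence these clusters, changed by 0.19 (adjusted p = 1.22e-03 by edgeR), and the DNA methyltransferase DNMT3B by -0.20 without passing the test (adjusted p = 0.0568 by edgeR).

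A list of genes for protocadherin processing and signalling, which also holds general signalling genes not known to bind these proteins directly, had enough counts throughout to be tested. Of these 28, 16 were called higher and 8 lower, and the median log2 fold change was 0.23 against 0.09 over all protein-coding genes tested. ADAM10, which sheds the extracellular part of PCDHG proteins, had 194 and 181 CPM in control and 337 and 340 CPM in resistant libraries (log2 fold change 0.85, adjusted p = 5.92e-09 by edgeR). PDCD10, a cytoplasmic binding partner, went from 174 and 170 CPM to 61.2 and 63.0 CPM (-1.47, adjusted p = 1.13e-10 by edgeR). CTNNB1, the gene of beta-catenin, was higher by 0.70 (adjusted p = 1.94e-08 by edgeR).

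Markers of other cell types were examined because clustered protocadherins are best known from neurons. The summed level of 9 neuron markers was 35.2 and 29.2 CPM in control and 7.28 and 7.91 CPM in resistant libraries, most of it from MAP2 (log2 fold change -2.52, adjusted p = 8.49e-10 by edgeR). Of the 4 that were tested, 1 was called higher, SYT1, from 6 and 5 counts to 44 and 39 (2.11, adjusted p = 1.91e-04 by edgeR). ELAVL4 had no count in any library, STMN2 and DCX had none in control libraries, and SNAP25 and GAP43 had at most 2 counts in any library. The 8 neural stem cell markers summed to 4.82 and 6.17 CPM in control and 3.28 and 3.02 CPM in resistant libraries. The 9 fibroblast markers summed to 9.31 and 11.4 CPM in control and 9.37 and 8.90 CPM in resistant libraries, and the 6 endothelial markers to 5.12, 4.46, 3.84 and 3.23 CPM. Among the latter, KDR had 0 and 1 counts in control and 24 and 13 in resistant libraries, whereas VWF had 4.57 and 4.17 CPM in control and 3.01 and 2.70 CPM in resistant libraries (log2 fold change -0.61, adjusted p = 2.05e-03 by edgeR). The 6 leukocyte markers summed to 0.713 and 0.677 CPM in control and 3.71 and 3.28 CPM in resistant libraries, with ITGAM giving 3.38 and 3.04 CPM of the resistant sums. The part of these other markers in the protocadherin results was not tested. All 10 prostate luminal markers examined had enough counts to be tested.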

How the data were processed

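The authors deposited raw read counts per gene for each library, made with STAR 2.5.2b and HTSeq on GRCh38 (hg38), per the submitters' processing notes. For HTSeq's version, mode and strand setting, and for the annotation release, nothing was given in the sources used here. HTSeq's own rows that name no gene took 55.4 to 74.4% of records and were left out. Of 60483 gene IDs, 56753 matched GENCODE 29, which gave symbols, positions and lengths. Its release may differ from the authors', so unshared lengths are approximate.

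Counts were tested with edgeR 4.0.16 (R 4.3.3), with TMM scaling, filterByExpr at a minimum count of 10, a quasi-likelihood F test on group only and Benjamini-Hochberg adjustment over 20325 genes. Residual degrees of freedom were 2. Standard errors were taken as the log2 fold change divided by the square root of F. Adjusted p under 0.05 was a call. CPM used TMM-scaled totals, and counting intervals of ratios were exact. Alternatives were DESeq2 1.42.0, other scalings and filters, a replicate block, a length and GC correction (mgcv 1.9.3) and leaving out each library. Scripts were tested on simulated data. Same-numbered libraries did not deviate together (r = -0.02 across genes).

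The members and lists were chosen with earlier results of these data known. Values in every library were given for the 4 called members of each cluster with the smallest adjusted p, the 3 highest per kilobase and the C-types. In each list of other genes, the 3 called with the smallest adjusted p were named, beside genes fixed by name. PCDH19, PCDH12, PCDH9, MAP2, SYT1, KDR, VWF, ITGAM, PCDHB8, PCDHGA10 and the pseudogenes were named after their values were seen. A result for 1 marker gene is not reported here.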

Additional observations from a re-analysis of the deposited data

How the results depend on the processing

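None of the 28 tested members reversed its direction under any alternative run, and no member was called lower. With no count filter, 48 of the 53 members had a log2 fold change above 0. PCDHA4, PCDHA9, PCDHA11, PCDHB12 and PCDHGC4, which were not tested in the main run, were below 0, from -0.094 (PCDHA4) to -0.558 (PCDHA9). With DESeq2 and its size factors, the count of all genes called lower was 4101 instead of 6443, PCDHA had 1 member called higher instead of 2, PCDHB had 4 instead of 7, and PCDHG had 12 instead of 18. In total 10 of the 28 tested members lost their call with DESeq2. A filter of 1 CPM in 2 libraries left 0 PCDHA and 4 PCDHB members called higher, since it tests fewer genes. The length and GC correction left 1 PCDHA member called, and 6 of the 28 tested members lost their call. With each library left out in turn, PCDHA had from 1 to 1 members called higher. The summed PCDHG log2 ratio was 1.25, and 1.44 with total count scaling, which itself moved the median of all genes from -0.02 to 0.17, and 1.00 with the length and GC correction. The median of the neighbouring genes changed sign, from -0.04 to 0.07 with DESeq2, 0.14 with total count scaling and 0.11 with no count filter. Unless shown by how an alternative is built, the cause was not tested. With the replicate block, which pairs libraries that share only a number, the members called higher were 2 in PCDHA, 7 in PCDHB and 19 in PCDHG. The block changed the call of 1 tested member, PCDHGB7 (0.64, edgeR adjusted p = 0.0356). Depth limits the 25 members that were not tested, for which a difference was mostly not detectable.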
